A study of Mus musculus with 27 samples.

Results

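Calcium leaves a cell by a pair of routes. Plasma membrane calcium pumps (Atp2b genes) spend ATP to expel it with high affinity, and sodium-calcium exchangers (Slc8 genes) and sodium-calcium-potassium exchangers (Slc24 genes) use the sodium gradient to move larger amounts at lower affinity. In bone the osteoblast lays down a matrix that then takes up calcium and phosphate, and both routes have been studied there as ways for calcium to reach the mineralizing side of the cell. In tooth enamel, Slc24a4 in ameloblasts has this role.

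The 10 genes described here, of 37991 genes in the deposited profiles, are 5 Slc24 genes (Slc24a1 to Slc24a5), 3 Slc8 genes (Slc8a1 to Slc8a3) and the pumps Atp2b1 and Atp2b4. They were chosen by name, with Slc24a4 already known to be near-silent in these cells. All 27 profiles come from C57BL/6J mice, 5 to 9 days of age, whose calvarial cells carry cyan fluorescent protein (CFP) under the Col3.6 fragment of the type I collagen promoter. Cells were grown for 4 days, sorted for CFP, and returned to culture with ascorbic acid and β-glycerol phosphate. RNA was taken on days 2, 4, 6, 8, 10, 12, 14, 16 and 18, and there is no untreated group. The Col3.6 fragment marks a stage of the lineage rather than a single cell type, and the number of animals behind each day is not given in the sources used here.

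Each day has 3 profiles that carry 1 barcode and differ in the sequencing lane. They differed by about the sampling noise (chi-square per degree of freedom 0.999 to 1.02 within the 9 days), so they were counted as 1 library, and their SD reflects sequencing and quantification alone. The study's methods call them triplicate samples. Treated as 1 library, a day has no replicate. Summed over its profiles a day held 22470195 to 62009157 estimated counts, with day 10 the shallowest and day 12 the deepest. Levels are in TPM (the abundance of transcripts relative to the library, which allows for transcript length) after upper-quartile normalization, and a gene was called expressed on a day at 1 TPM or more. Intervals on CPM (counts scaled to the library total, without regard to length) are 95% Wilson intervals and cover counting error only.

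The exchangers share a stretch that helps to form the ion pathway. The best conserved window of 20 codons in each family is shown for the expressed and the near-silent members. It was picked for having the most shared amino acids, so its likeness does not speak for the whole sequence. Sequences are from the GENCODE transcripts of NCBIM37, each lies within 1 exon, and capitals mark codons for the same amino acid in all members of the family.
Slc24a3: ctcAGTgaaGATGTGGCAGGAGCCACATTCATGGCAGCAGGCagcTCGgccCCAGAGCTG
Slc24a4: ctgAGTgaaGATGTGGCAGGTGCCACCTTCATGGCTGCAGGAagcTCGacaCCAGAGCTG
Slc24a5: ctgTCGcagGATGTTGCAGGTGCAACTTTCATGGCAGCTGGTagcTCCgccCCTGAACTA
Slc24a1: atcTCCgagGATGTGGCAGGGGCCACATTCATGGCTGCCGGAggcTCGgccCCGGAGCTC
Slc24a2: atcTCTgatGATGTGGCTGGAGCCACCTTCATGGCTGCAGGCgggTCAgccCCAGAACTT
Slc8a1: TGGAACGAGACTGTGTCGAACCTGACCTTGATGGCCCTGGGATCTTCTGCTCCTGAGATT
Slc8a2: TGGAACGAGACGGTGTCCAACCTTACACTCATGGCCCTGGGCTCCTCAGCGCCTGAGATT
Slc8a3: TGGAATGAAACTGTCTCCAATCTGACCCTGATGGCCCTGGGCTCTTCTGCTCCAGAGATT

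In the 5 Slc24 genes, 16 of these 20 codons encode the same amino acid, and in the 3 Slc8 genes all 20 do. The Slc24a3 stretch lies at chr2:145344147-145344206 (plus strand, exon 5 of 17) and the Slc24a4 stretch at chr12:103460262-103460321 (plus strand, exon 5 of 17). That of Slc24a5 is at chr2:124906365-124906424 (plus strand, exon 3 of 9), of Slc24a1 at chr9:64796003-64796062 (minus strand, exon 2 of 10) and of Slc24a2 at chr4:86873150-86873209 (minus strand, exon 1 of 10). Those of the Slc8 genes are at chr17:82048510-82048569 for Slc8a1 (minus strand, exon 1 of 10), chr7:16719563-16719622 for Slc8a2 (plus strand, exon 2 of 10) and chr12:82416587-82416646 for Slc8a3 (minus strand, exon 2 of 8). Exons are numbered in the transcript with the longest complete coding sequence.

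The pumps form a phosphorylated intermediate during each cycle, and the window around that site is shown with the 5 codons of the site in capitals, beginning with the aspartate that takes the phosphate.
Atp2b1: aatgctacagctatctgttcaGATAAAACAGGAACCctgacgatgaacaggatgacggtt
Atp2b4: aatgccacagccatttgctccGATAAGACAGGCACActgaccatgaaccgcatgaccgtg

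They lie at chr10:98462430-98462489 (plus strand, exon 10 of 21) and chr1:135628366-135628425 (minus strand, exon 9 of 20). Over the whole coding sequence, Atp2b1 and Atp2b4 are 72.1% identical and Slc24a4 and Slc24a3 70.4% (identical bases over the shorter sequence in a global alignment). Pairs of Slc24 genes ranged from 61.7% to 71.1%, and pairs of Slc8 genes from 68.4% to 72.5%. The longest run of bases shared between annotated protein-coding transcripts of Slc24a4 and Slc24a3 was 17, and the longest between any pair of members within a family was 26. The estimated counts of 9 of the 10 genes were whole numbers in all 27 profiles. Slc24a5 was the exception.

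The genes fell into 3 levels. Atp2b1, Slc24a3 and Atp2b4 averaged 22.7, 21.5 and 9.64 TPM over the 9 days and were expressed on 9 of 9 days. Slc8a1 averaged 2.78 TPM and was expressed on 9 days, and Slc8a3 averaged 1.77 TPM and was expressed on 5, from day 10 on. Slc24a5 (0.378 TPM), Slc8a2 (0.195), Slc24a4 (0.0598), Slc24a1 (0.0449) and Slc24a2 (0.0210) did not reach 1 TPM on any day. Atp2b1 and Slc24a3 changed places during the culture, so their means hide their order: the pump was higher on days 2 to 8, the exchanger on days 10 to 18, and the counting intervals of their TPM did not overlap on any day.

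**Figure D1:**
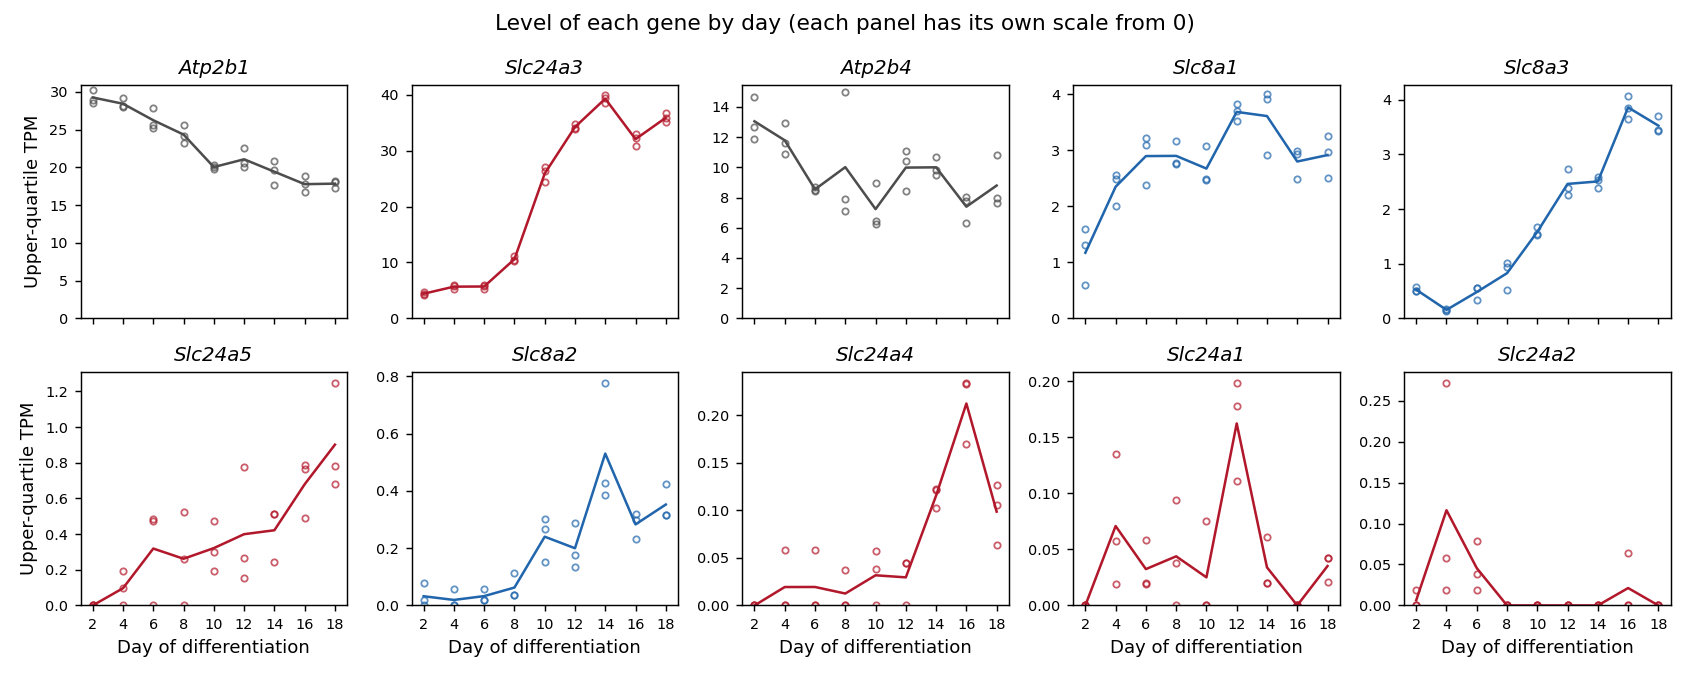
Level of each of the 10 genes (vertical axis, upper-quartile TPM, its own scale in each panel) against the day of differentiation, in order of the mean level. Circles are the 3 profiles of a day and lines join their means. Slc24a3 climbs between day 6 and day 14 while Atp2b1 declines from 29.3 to 17.8 TPM, and the panels of Slc24a4, Slc24a1 and Slc24a2 stay under 0.3 TPM.

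Which of these genes follow the days was tested with edgeR over all genes, by a straight line in day through the 9 libraries and, for genes that peak or dip, by a natural spline. The line could be fitted to 7 of the 10 genes, those with enough counts, and 4 rose and 2 fell (edgeR quasi-likelihood test, Benjamini-Hochberg adjusted p under 0.05 over 15659 genes), that is 6 with a slope in either direction. Slc8a1 was the gene that passed in neither direction. In the background of all genes tested, 28.3% rose and 26.1% fell (54.3% in either direction), so a slope is common in this culture. By the spline, 8 of 9 genes tested passed, and 57.5% of all genes did. One of the 8, Slc24a4, had enough counts to be tested only through its high days 14 and 16, and its call was lost under several alternatives given with its values. Slc8a2 and Slc24a5, among the genes that rose, also had enough counts only on later days, where they are high. Their rise is thus tied to the filter, though both passed the line with every gene kept (adjusted p = 0.0029 and 0.0162 from edgeR). The 3 genes without a line were those with the fewest counts. The numbers of genes that passed therefore do not speak for all 10 and are not read against the background.

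**Figure D2:**
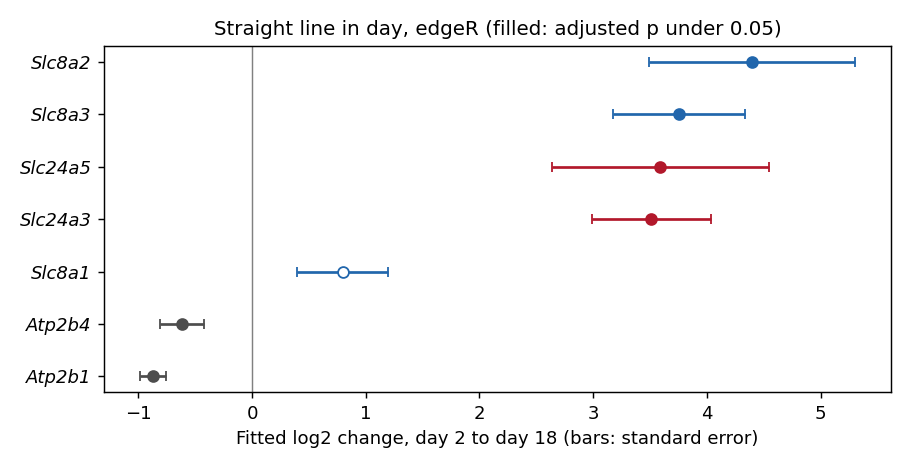
Fitted log2 change from day 2 to day 18 (horizontal axis) of the 7 genes with a straight line in day, with standard errors as bars. Filled points passed an adjusted p of 0.05: the 4 exchangers at 3.51 or more and both pumps, below 0, while Slc8a1 at 0.80 is open. Slc8a2 and Slc24a5 had enough counts to be tested only through later days, where they are high.

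Slc24a3, a potassium-dependent exchanger found in many tissues, had the largest rise in TPM of the 10. From day 2 to day 18, in order, it stood at 4.40, 5.67, 5.70, 10.6, 25.9, 34.2, 39.3, 32.1 and 35.9 TPM. The low days 2 to 6 and the high days 10 to 18 did not overlap, and day 8 lay between them. The 3 profiles of a day differed by an SD of 0.312 to 1.42 TPM. From day 2 to day 18 the level rose 8.16-fold, and the log2 change by the spline was 2.72. By the line the fitted log2 change was 3.51 (standard error 0.52, adjusted p = 0.00035 from edgeR), or 11.4-fold, more than the rise in level. With any of the 9 days left out it lay between 3.30 and 4.01 and passed each time. Among genes with a value above 0, its percentile rank was 48.8 on day 2 and 85.0 on day 14. The gene (ENSMUSG00000063873) spans chromosome 2 from 144993490 to 145467902 on the plus strand of NCBIM37, has 5 annotated transcripts, and its mean transcript length in RSEM stayed between 3256 and 3689 bases, so the rise in TPM is also one in counts (422 on day 2, 3520 on day 14).

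Slc24a3 made up 93.2% to 99.9% of the summed Slc24 TPM on every day. The other 4 members of its family therefore added little to the 4.40 TPM of the family on day 2 or the 39.9 TPM on day 14. The genes most like it in log2 CPM over the 9 days were Mid1, Ppt1 and Gab1, with Pearson's r of 0.999, 0.997 and 0.997. Mid1 encodes a microtubule-associated ubiquitin ligase, Ppt1 a lysosomal thioesterase and Gab1 a docking protein of receptor signalling. In all, 1595 of 9814 genes compared had r over 0.9, since many genes share a rise over the same 9 libraries, so the likeness is not particular to these 3.

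Slc8a3, an exchanger known from brain and skeletal muscle, rose from a low start. Its TPM ran 0.524, 0.155, 0.481, 0.826, 1.58, 2.46, 2.51, 3.86 and 3.53 over the 9 days. The dip on day 4 rests on 21 counts, and its CPM interval (0.325 to 0.759) lies below those of its neighbours. All days from 10 on were above all days before. The fitted log2 change was 3.76 (standard error 0.58, adjusted p = 0.00041 from edgeR), and 3.28 to 4.58 with a day left out. By the spline it was 3.08, and the level on day 18 was 6.73 times that of day 2. The 6 markers of striated muscle summed to 5.59 TPM on day 2, 13.9 on day 4 and 0.388 on day 18, nearly all of it Acta1. Of these markers 3 were tested by the line, Acta1 fell, Myh3 and Ttn did not pass, and Ckm had 0 counts.

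Slc8a1, the exchanger best known from heart muscle, had a different course. Over the same 9 days it had 1.17, 2.35, 2.90, 2.90, 2.67, 3.69, 3.61, 2.80 and 2.92 TPM. Day 2 was below all later days, which lay between 2.35 and 3.69 TPM. The fitted log2 change by the line was 0.80 with a standard error of 0.40 and did not pass (edgeR, adjusted p = 0.116), while the spline passed (adjusted p = 0.0077 from edgeR). Without day 2 the adjusted p of the spline was 0.350, so the change rests on that library, which held 76 counts of Slc8a1. Most alike in pattern were Thbs2, Dkk3 and Pcdha11, with r of 0.973, 0.965 and 0.964 over 9 days. In all, 168 of 9815 genes had r over 0.9. Thbs2 encodes a matricellular protein and Dkk3 a secreted glycoprotein of the Dickkopf family. Pcdha11 shares exons with its gene cluster, which makes its own level uncertain.

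Slc8a2, an exchanger typical of neurons, rose but stayed low. Its counts were 4, 2, 4, 5, 14, 28, 59, 35 and 37 from day 2 to day 18, or 0.0192 TPM on day 4 and 0.530 on day 14. Days 2 to 8 and days 10 to 18 did not overlap in TPM. The fitted log2 change was 4.40 (standard error 0.91, adjusted p = 0.0022 from edgeR), and 3.39 by the spline. Of the 5 neuron markers 3 were tested by the line. Among them 2 fell, Stmn2 and Syt1, and Nefl did not pass (log2 change 1.65, adjusted p = 0.332 from edgeR). Snap25, not tested by the line, passed by the spline (adjusted p = 0.0391 from edgeR), with 0 TPM on day 2 and 0.296 on day 18. The 5 markers summed to 34.6 TPM on day 2 and 24.5 on day 18, nearly all of it Stmn2.

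The makeup of the Slc8 transcripts shifted accordingly. Slc8a1 gave 67.8% of the summed Slc8 TPM on day 2, 93.1% on day 4 and 42.9% on day 18, and Slc8a3 gave 30.4%, 6.12% and 51.9%. Slc8a1 stood above Slc8a3, beyond the counting intervals, on 7 of 9 days, from day 2 to day 14. On day 16 Slc8a3 was above it, and on day 18 their intervals overlapped. Slc8a2 held at most 7.97%, on day 14. The family as a whole summed to 1.73 TPM on day 2 and 6.80 on day 18.

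**Figure D3:**
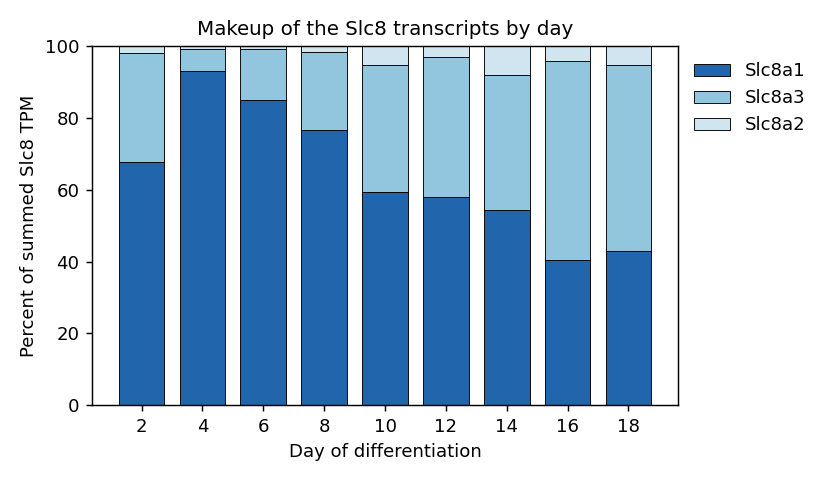
Share of each gene in the summed Slc8 TPM (vertical axis, percent) by day of differentiation. Slc8a1 fills most of each bar up to day 14 and 40.3% on day 16, when Slc8a3 reaches 55.6%.

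Atp2b1, the pump that most cells use, fell. From day 2 to day 18, in order, it measured 29.3, 28.4, 26.2, 24.3, 20.03, 21.1, 19.4, 17.8 and 17.8 TPM. All days from 10 on were below all days before. The day 2 level was 1.64 times that of day 18, and the fitted log2 change was -0.87 (standard error 0.12, adjusted p = 0.00019 from edgeR), and -0.9996 to -0.80 with a day left out. The SD over the profiles of a day was 0.307 to 1.60 TPM. It remained among the more abundant transcripts, with a percentile rank of 80.6 on day 2 and 71.5 on day 18. Closest in pattern were Cltc (clathrin heavy chain), Bdp1 (a subunit of a polymerase III initiation factor) and Hnrnph1 (a splicing factor), with r of 0.993, 0.990 and 0.987 over 9 days, and 1320 of 9814 genes had r over 0.9.

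Atp2b4, a pump of many tissues and of erythrocytes, fell less evenly. Its 9 days gave 13.05, 11.8, 8.54, 10.01, 7.23, 9.98, 9.999, 7.39 and 8.79 TPM. Days 2 and 4 were highest, and the others lay between 7.23 and 10.01 TPM. In CPM, which leaves out transcript length, it went from 64.6 (62.2 to 67.1) on day 2 to 35.1 (32.7 to 37.6) on day 10 and 37.3 (35.5 to 39.1) on day 18. The fitted log2 change was -0.61 (standard error 0.19, adjusted p = 0.021 from edgeR), and the spline passed too (adjusted p = 0.00025 from edgeR). The line did not pass without day 2 (-0.33, adjusted p = 0.174), without day 4 (adjusted p = 0.0589) or without day 16 (adjusted p = 0.0540, all from edgeR).

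The TPM of Atp2b4 depends on how RSEM divided its reads among 7 annotated transcripts. On day 8 the 3 profiles held 377, 388 and 385 counts but 7.88, 7.14 and 15.02 TPM, since the mean transcript length was 7404, 8183 and 3958 bases. The counts thus agreed where the TPM did not. For Slc8a3 and Slc24a1 the length was the same in every profile (4943 and 5213 bases).

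Atp2b1 gave 66.0% to 75.4% of the TPM of the pumps described here, with no crossing between the pumps on any day. Their sum went from 42.3 TPM on day 2 to 26.6 on day 18, and that of the 8 exchangers from 6.13 to 43.7. The ratio of exchanger to pump TPM was 0.145, 0.211, 0.274, 0.428, 1.13, 1.33, 1.58, 1.59 and 1.64 in order of day. It was thus under 1 up to day 8 and over 1 from day 10. These are sums of transcripts and say nothing of protein, transport or the side of the cell. In bulk RNA fewer cells of a type and less RNA per cell cannot be told apart.

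**Figure D4:**
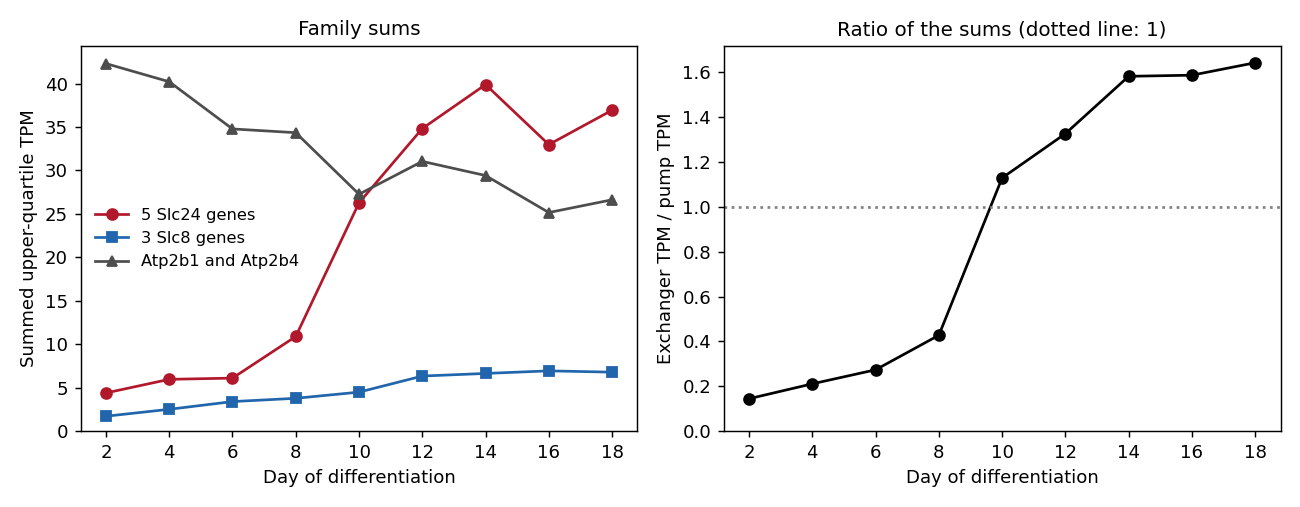
Left, summed upper-quartile TPM of the 5 Slc24 genes, the 3 Slc8 genes and the pumps Atp2b1 and Atp2b4 by day of differentiation. Right, the ratio of exchanger to pump TPM, which crosses 1 between day 8 (0.428) and day 10 (1.13).

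Slc24a4 ranked eighth of the 10 genes and 19293 among all genes by mean TPM. It had 40 counts in all: 0 on day 2, 1 on each of days 4, 6 and 8, then 2, 3, 11, 13 and 8 on days 10 to 18. In CPM this was 0.244 (0.136 to 0.436) on day 14 and 0.257 (0.1503 to 0.440) on day 16, while the interval for the 0 counts of day 2 reaches 0.0909. On day 16, its highest, the level was 0.212 TPM, while Slc24a3 had 3139 counts and 32.1 TPM. Slc24a4 never made up more than 0.643% of the Slc24 TPM. With all 9 days the line was not fitted under the filter on low counts. Without day 4 it was, again through days 14 and 16 (log2 change 5.12, standard error 1.30, adjusted p = 0.0104 from edgeR). With all 9 days and every gene kept, the log2 change was 4.89 with a standard error of 1.19 (edgeR, adjusted p = 0.0065). Both sizes depend on the prior count since day 2 held 0 counts. The spline gave an adjusted p of 0.0296 (edgeR), which did not pass with DESeq2 (0.0719), with no filter on low counts (0.0704) or without day 2, 4, 6 or 8 (0.0901, 0.0522, 0.0640 and 0.0501 from edgeR). Without day 14, day 16 or any 1 replicate it had too few counts to be tested. Of the 5 ameloblast markers, 4 had 0 counts and Amelx had 1 count.

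Its nearest neighbours in the order were Slc8a2 above and Slc24a1 below. The counting intervals of Slc24a4 and Slc8a2 overlapped on 5 of 9 days, with Slc8a2 higher on the other 4. Those of Slc24a4 and Slc24a1 overlapped on 7 of 9 days, with Slc24a4 higher on day 16 and Slc24a1 higher on day 12. Slc24a4 (ENSMUSG00000041771) lies on chromosome 12 from 103366943 to 103505301 on the plus strand of NCBIM37, and other annotated genes overlap only its introns.

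Slc24a1, the exchanger of rod photoreceptors, had 59 counts in all, and 28 of them fell on day 12. They were spread over its profiles as 11, 10 and 7, and the CPM was 0.452 (0.312 to 0.653). On days 2 and 16 it had 0 counts. It did not pass by the spline (adjusted p = 0.630 from edgeR). The photoreceptor markers summed to at most 0.384 TPM, on day 10, with Gnat1 at 0 counts.

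Slc24a2, the exchanger of cones and neurons, had 23 counts, of which 11 fell on day 4 and 9 on day 6. All 3 profiles of both days held some. It had 0 counts on days 8, 10, 12, 14 and 18, for which the interval on day 10, the shallowest, reaches 0.171 CPM. Neither test could be fitted with the filter on low counts. With every gene kept, the log2 change was -4.58 (standard error 2.07, adjusted p = 0.106 from edgeR). The highest neuron marker sum, 63.7 TPM, was on day 6, and its part in the Slc24a2 counts was not tested.

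Slc24a5, a melanosomal exchanger that influences pigmentation, climbed from 0 counts on day 2 to 30.2 on day 18, or 0.901 TPM. Its fitted log2 change was 3.59 (standard error 0.95, adjusted p = 0.0089 from edgeR), and 2.83 (adjusted p = 0.0162 from edgeR) without day 2, where the level was 0. Its counts were whole numbers in 8 of 27 profiles only. Its exons overlap those of Myef2 on the other strand, which fell from 2578 counts on day 2 to 1081 on day 18, and strand-specific counting is not stated, so reads of the pair cannot be told apart where they overlap. Of the 5 melanocyte markers 2 were tested by the line. Tyr fell (log2 change -1.07, adjusted p = 0.0455 from edgeR), Pmel did not pass, and Dct had 0 counts. Their sum was 0.441 TPM on day 2 and 0.916 on day 18, of which Mlana, with 7 counts in all, gave 0.430. Slc8a1 exons overlap Gm11096 on the other strand, which was listed at 0 on all days.

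**Figure D5:**
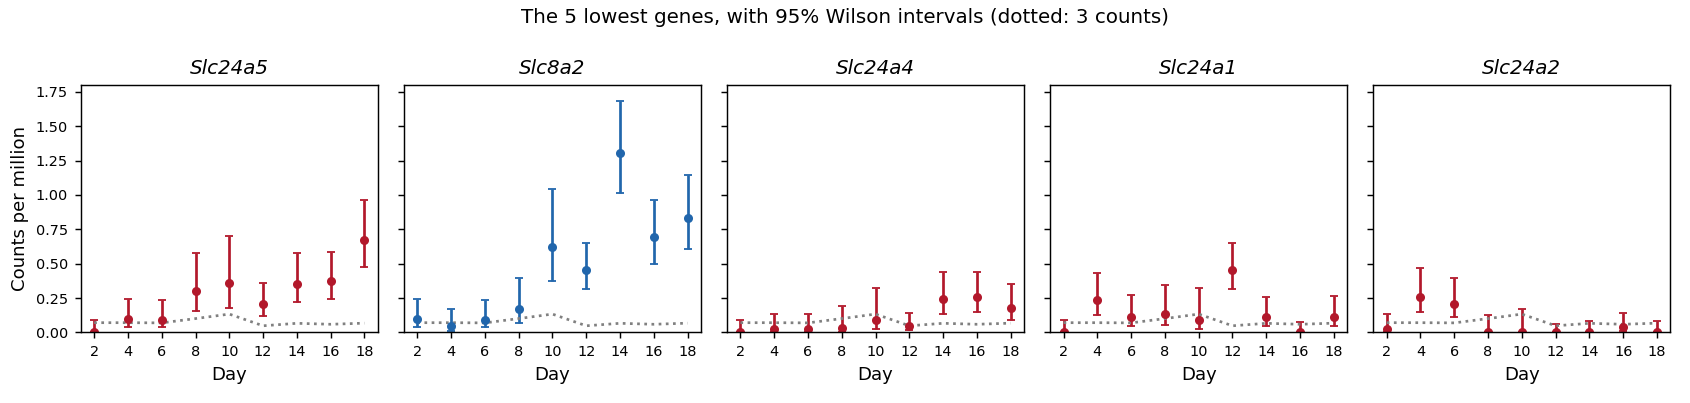
CPM (vertical axis) of the 5 lowest genes by day, with 95% Wilson intervals as bars and the level of 3 counts as a dotted line. Slc8a2 reaches 1.31 on day 14 and Slc24a5 0.675 on day 18, while Slc24a4 stays at or under 0.257.

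Cell type markers moved over the same days. Summed osteoblast markers (8 genes) went from 3000 TPM on day 2 to 9286 on day 18, and 5 of 8 rose by the line. Most of the sum was Col1a1 (1526 and 4263 TPM) and Col1a2 (983 and 4114 TPM). Sp7, Alpl and Spp1 did not pass by the line but did by the spline. Sp7 was at 32.3 TPM on day 2, 2.77 on day 8 and 10.6 on day 18. Alpl was at 9.13 TPM on day 2, 0.467 on day 6 and 17.6 on day 18. Spp1 had a fitted log2 change of -1.17 (adjusted p = 0.0932 from edgeR). Ibsp was at 0.581 TPM on day 2, 0.0965 on day 4 and 78.4 on day 18. Bglap was at 1.24, 0.224 and 208 TPM on those days. Osteocyte markers went from 0.390 to 43.8 TPM, led by Phex and Dmp1, with Mepe and Sost at 3 and 13 counts in all. Adipocyte markers rose from 7.44 to 407 TPM (5 of 5), macrophage markers from 24.1 to 2014 (6 of 7), and osteoclast markers from 37.6 to 216 (4 of 8). In the macrophage sum Lyz2 alone gave 19.9 TPM on day 2 and 1855 on day 18. Cd14 did not pass by the line (adjusted p = 0.129 from edgeR). Of the osteoclast sum Ctsk alone gave 36.5 TPM on day 2 and 193 on day 18, Oscar and Ocstamp did not pass, and Calcr and Dcstamp had 0 counts. Smooth muscle markers fell from 6182 to 987 TPM (4 of 4). Summed endothelial markers peaked at 12.1 TPM on day 14, of which Tek gave 8.51. Tek and Cdh5 rose by the line and Kdr fell (log2 change -3.27, adjusted p = 0.0249 from edgeR). Pecam1 and Emcn were not tested by the line and had 68 and 11 counts in all. Erythroid markers reached at most 1.85 TPM, with Slc4a1 at 0 counts. The labelled osteoblast type thus had its markers, beside those of other cells, but Ibsp, Bglap and Alpl were under 1 TPM on some early days. The part of any of these cells in the rises of Slc24a3, Slc8a3, Slc8a2 and Slc24a5 or in the falls of the pumps was not tested.

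Of 46 other genes of calcium transport, sensing and the sodium gradient, 32 were tested by the line, 17 rose, 6 fell and 9 did not pass, with a median log2 change of 0.43. Among all genes tested by the line, 28.3% rose and 26.1% fell. Among the other members of these families, Atp2b2 had 3 counts in all and Atp2b3 39, against 36456 of Atp2b1 and 16245 of Atp2b4. Slc8b1, the mitochondrial exchanger, averaged 15.4 TPM and rose, with 11.2 TPM at the start and 25.5 at the end (log2 change 1.28, adjusted p = 0.0025 from edgeR). Of the subunits that the pumps need, Bsg rose by 1.30 on the log2 scale (adjusted p = 6.5e-05) and Nptn, which averaged 153 TPM, had a change of 0.13 that did not pass (adjusted p = 0.274, both from edgeR). Bsg thus moved opposite to the pumps it can assemble with.

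Of 5 pumps of internal stores 2 were tested and both fell. Atp2a2, which fills the endoplasmic reticulum, averaged 121 TPM and fell by 0.46 on the log2 scale (adjusted p = 0.0399), and Atp2c1, which serves the Golgi, averaged 60.2 TPM and fell by 1.17 (adjusted p = 0.00042, both from edgeR). Among 6 release channels 4 were tested by the line, of which 3 rose and 1 fell. Itpr1 and Itpr2, inositol trisphosphate receptors, changed by 0.56 and 0.58, and Ryr3, at 0.485 TPM on average, by 2.40 (adjusted p = 0.0411, 0.0050 and 0.0055 from edgeR). The one that fell was Itpr3 (-0.52, adjusted p = 0.01996 from edgeR), named after its value was seen.

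Of 14 entry genes, 12 were tested by the line, 6 rose, 2 fell and 4 did not pass. Piezo1, a mechanically gated channel, fell, with 94.3 TPM at the start and 23.9 at the end (log2 change -2.24, adjusted p = 6.4e-06 from edgeR). The other that fell was Orai2, a store-operated channel (-1.70, adjusted p = 8.2e-05 from edgeR), also named after its value was seen. Stim2, a store sensor, had a change of -0.19 (adjusted p = 0.199 from edgeR). The largest change among them was in the voltage-gated channel gene Cacna1d, at 4.09, from 0.0255 to 0.824 TPM (adjusted p = 8.0e-05 from edgeR). Mcu, the pore of the mitochondrial uniporter, changed by -0.18 and did not pass (adjusted p = 0.291 from edgeR). Calm2, a calmodulin gene whose product activates the pumps, averaged 1078 TPM and did not pass by the line (adjusted p = 0.295), while Calm3 rose by 0.36 (adjusted p = 0.0137, both from edgeR).

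The sodium gradient on which the exchangers draw is set by the sodium-potassium pump. Atp1b3, a regulatory subunit of it, averaged 95.6 TPM and did not pass by the line (adjusted p = 0.194 from edgeR). The regulatory subunit genes Atp1b1 and Atp1b2, named after their values were seen, rose by 1.65 and 5.87 on the log2 scale (adjusted p = 0.0068 and 0.00089 from edgeR). With 1 library a day, handling that drifted with time and the day itself cannot be told apart in any of these results.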

How the data were processed

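RNA was amplified (NuGEN Ovation), built into Illumina TruSeq libraries and sequenced. The authors aligned reads to the NCBIM37 transcriptome with Bowtie 0.12.9 and quantified genes with RSEM (1.2.8 per the submitters' processing notes). The expected counts deposited by the authors are RSEM estimates without normalization. The TPM deposited by the authors allow for effective length, and the FPKM deposited by the authors served as an alternative only.

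The 3 profiles of a day were summed and rounded, giving 9 libraries. Each profile's TPM were rescaled so that the upper quartile of its nonzero values equalled the average quartile (23.97 TPM). edgeR 4.0.16 in R 4.3.3 fitted a line, and a natural spline with 3 degrees of freedom, in day with the quasi-likelihood test and Benjamini-Hochberg adjustment over all genes, after upper-quartile scaling and removal of low genes by filterByExpr (10 counts). Log2 changes span day 2 to day 18 along the fitted line unless the spline is named, and standard errors are the change over the root of F. Both fits were tested on simulated data. Python 3.11.15 was used elsewhere.

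The members and lists were chosen with earlier results of these data known. Named genes are all members, from each pathway list the highest 2 by mean TPM and the largest slope called, and the 3 most correlated genes for the leading member of each family (mean of at least 5 TPM). All 115 list genes were found, and some named by this rule are not reported here. Symbols come from GENCODE M1, which named 37205 of 37991 identifiers. Alternatives were TMM factors, DESeq2 1.42.0, other filters, unsummed profiles with and without a replicate block, left-out replicates and days, early against late days, and other thresholds and units.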

Additional observations from a re-analysis of the deposited data

How the results depend on the processing

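With a minimum count of 50, 2 members rose and 5 changed by the spline, since Slc8a2 and Slc24a5 and, for the spline, Slc24a4 were no longer tested. With days 2 to 6 against days 14 to 18, 1 member fell, as Atp2b4 did not pass (adjusted p = 0.0519 from edgeR); the cause was not tested. Members expressed on at least 1 day were 5, and 10 with a threshold of 0.1 TPM, 3 with 5 TPM and 10 with at least 10 summed counts, as the construction of each threshold implies. With a replicate or a day left out, 4 to 5 members rose, 1 to 2 fell, 5 to 6 had a slope, 5 to 8 changed by the spline and 5 to 6 were expressed. The count of 5 by the spline came without day 2, where Slc8a1, Slc24a5 and Slc24a4 did not pass (adjusted p = 0.350, 0.0951 and 0.0901 from edgeR). The order of the 10 mean levels was the same with TPM or FPKM as deposited and without any replicate. No direction reversed among the slopes of the 7 members tested.

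Replicate numbers coincide with lanes and do not pair the samples. Deviations of same-numbered profiles from their day means correlated by -0.00403 on average, against 0.00199 for different numbers. With 27 profiles as separate samples and the replicate block, 10881 genes had a slope, against 10754 without it and 8510 in the summed libraries. Of the members, 6 had a slope with and without the block, as in the summed libraries, but Slc24a5 was not tested and Slc8a1 passed in its place (log2 change 0.77, adjusted p = 0.00965 from edgeR), although these profiles are not independent libraries. Depth limits the 5 genes under 1 TPM, where 3 counts equal 0.0484 to 0.134 CPM.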
